A study of Mus musculus with 2 samples.

Results

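The genes described here are 10 that build the ligands of L-selectin or carry them: Glycam1, Cd34, Podxl and Madcam1, which encode sialomucin protein cores, and Gcnt1, B3gnt3, Chst4, Chst2, Fut7 and Fut4, which encode enzymes that make their sugar chains. They were listed by symbol from knowledge of the pathway, and all 10 were found once among the 22620 genes of both libraries. Single cells of primary tumours (PT) and of paired lymph nodes (LN) were counted from C57BL/6J mice carrying tumours of EO771-HEVM3 cells. The HEVM3 cells were derived from EO771, a breast cancer line of the mouse, by 3 rounds of selection in mice for spread through lymph node venules. Each tissue gave 1 droplet-based library, in which molecules were counted by unique molecular identifiers (UMIs). Cells of 6 mice were pooled in it, and no label ties a cell to a mouse. The labels name no genotype, agent or control group besides the tumour cells, and the tumour and the lymph nodes were digested with different enzymes, so tissue and digestion cannot be told apart.

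L-selectin on lymphocytes binds sulfated, sialylated and fucosylated O-glycans on the high endothelial cells (HECs) that line the venules where lymphocytes enter a lymph node. Gcnt1 starts the core 2 branch of these glycans and B3gnt3 extends the core 1 branch, Chst4 and Chst2 add sulfate to N-acetylglucosamine, and Fut7 and Fut4 add fucose. Glycam1 is a secreted mucin of lymph node HECs, Cd34 and Podxl are membrane mucins of most blood vessels, and Madcam1 is the mucin of gut-associated venules that also binds integrin. The study named endothelial cells as HECs by Glycam1, Chst4 and Fut7.

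Each tissue had 1 library, so differences could not be checked against replicates and nothing was tested. Levels are UMIs of a gene per 1000000 UMIs (CPM), summed over the cells of a class in a library. The 95% intervals in brackets are exact Poisson intervals for levels and exact Clopper-Pearson intervals for shares of cells, and both cover counting error only. Shares of cells with a single gene were computed after thinning every cell to 1000 UMIs, because depth differed between classes. Counts and shares of cells with several genes, and numbers of cells with a gene, are not thinned unless stated. The deposited PT library held 12427 cells with a median of 9161 UMIs, and the LN library held 11617 cells with a median of 2630 UMIs. After filters, 9371 PT cells and 10635 LN cells were kept, of which 725 and 940 had over 6000 detected genes. The libraries shared 47 cell barcodes.

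The LN endothelial class held 342 cells with a median of 42690 UMIs, and 156 of them (45.6%) had over 6000 detected genes. The study also sorted endothelial cells of lymph nodes for sequencing, the labels name no sort for this library, and whether it holds cells of another preparation is not stated, which bears on every LN endothelial level here. All 9 endothelial markers were found in it, with a summed level of 1370 CPM, led by Egfl7 at 639 CPM, Pecam1 at 241 CPM and Cdh5 at 203 CPM. The tight junction gene Cldn5 was at 2.35 CPM, and the venule genes Ackr1, Ccl21a and Ccl19 had 0 UMIs. Of 5 lymphatic markers, Prox1 had 3 UMIs and Mmrn1 had 0, while Lyve1 was at 54.9 CPM. Markers of cancer, T and B cells summed to 55.7, 31.2 and 34.9 CPM in these cells. The PT endothelial class held 41 cells with a median of 4248 UMIs, none of them over 6000 detected genes, and its 9 endothelial markers summed to 6611 CPM. LN cancer cells had a median of 46401 UMIs, LN T cells 2984 and LN B cells 1812.

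The positions of the genes follow GRCm38, the build of the files. Glycam1 lies at chr15:103562759-103565081 on the minus strand with 4 exons in its longest coding transcript, Chst4 at chr8:110029153-110039740 on the minus strand with 2 exons, and Fut7 at chr2:25423267-25426374 on the plus strand with 2 exons. Cd34 lies at chr1:194938819-194961279 on the plus strand and Podxl at chr6:31519488-31563981 on the minus strand, each with 8 exons. Chst2 lies at chr9:95399292-95406722, Fut4 at chr9:14748320-14752393, Gcnt1 at chr19:17326141-17372844 and Madcam1 at chr10:79664559-79668537. B3gnt3 lies at chr8:71690756-71701789 and overlaps Gm45756 on the other strand, as Cd34 overlaps Gm16897.

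The promoters of Glycam1 and Fut7 are shown because these genes were found in the same LN endothelial cells and in 0 PT endothelial cells. The RefSeq promoter table (GRCm38.p6) matched 9 of the 10 genes, with 12 start sites, and had no entry for Podxl. Each sequence is the 250 bases before the start, 5′ to 3′ on the strand of the gene, at chr15:103565082-103565331 (minus strand) for Glycam1 and chr2:25422992-25423241 (plus strand, the first of 2 listed starts) for Fut7. Capitals mark GGAA, the core of ETS factor sites, or TTCC where it lies on the other strand.
Glycam1: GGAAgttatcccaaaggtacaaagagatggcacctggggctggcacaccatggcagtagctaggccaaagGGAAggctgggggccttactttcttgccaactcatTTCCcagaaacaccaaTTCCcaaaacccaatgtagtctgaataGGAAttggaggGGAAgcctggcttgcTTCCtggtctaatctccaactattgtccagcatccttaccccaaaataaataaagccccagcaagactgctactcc
Fut7: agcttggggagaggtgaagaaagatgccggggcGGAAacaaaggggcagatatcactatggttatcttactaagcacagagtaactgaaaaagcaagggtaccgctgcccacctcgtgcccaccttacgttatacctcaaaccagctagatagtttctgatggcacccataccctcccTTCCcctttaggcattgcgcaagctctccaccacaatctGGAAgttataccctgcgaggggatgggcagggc

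The Glycam1 window held GGAA 4 times on the printed strand and 3 times on the other, and the Fut7 window 2 times and 1 time. The Chst4 window held it 2 times, but this window shares 161 bases with an annotated exon of Chst4 itself. The same 4 letters stand in 93.4% of 32851 promoter windows of this length, so the match does not set these genes apart. The kappa-B motif GGGNNNNNCC, searched on both strands, was in none of the Glycam1, Chst4 and Fut7 windows and 5 times in the Madcam1 window, where matches overlap. The motif was also found before B3gnt3 (3 times), Fut4 (2 times), and Chst2, Cd34 and Gcnt1 starts 1 and 2 (1 time each). It stands in 45.8% of all windows. A TATA box (TATAAA) was found only before 1 of the 3 Gcnt1 starts, against 12.4% of all windows. A match is a description of letters, and its absence says nothing of the factor.

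Glycam1, the secreted mucin core, was found mainly in LN endothelial cells, which held 89.8% of its UMIs among the 12300 in kept LN cells. The 172 unnamed LN cells held 6.75%, at 144 CPM [135-154], and 55 of them had markers of both cancer and endothelial cells. The endothelial class held 11049 Glycam1 UMIs in 107 of 342 cells, a level of 743 CPM [730-757]. LN B cells were at 21.2 CPM [18.5-24.05], dendritic cells at 7.13 CPM [2.62-15.5], T cells at 6.07 CPM [4.81-7.57] and cancer cells at 1.43 CPM [1.17-1.75]. The intervals of dendritic and T cells overlapped. After thinning, 14.3% [10.7-18.5] of LN endothelial cells had a Glycam1 UMI, against 1.21% of B cells, 0.68% of T cells and 0.15% of cancer cells, classes that should lack the gene. PT classes with at least 20 cells held 1 Glycam1 UMI, in a cancer cell, and the 41 PT endothelial cells had 0, which allows up to 13.0 CPM.

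The Glycam1 level rested on few cells. The highest cell held 1665 UMIs, and the 5 highest cells held 42.4% of all Glycam1 UMIs of the class. Without the highest cell the level was 633 CPM. Of the 107 cells with Glycam1, 39 had 1 or 2 UMIs, and the 54 cells with 10 or more held 10938 of the 11049 UMIs. Outside the endothelial class, 10 cells left unnamed had 10 or more UMIs and held 810, with 346 in the highest. In the B cell class 3 cells had 10 or more, and they held 135 of its 235 Glycam1 UMIs. Without them the B cell level was 9.01 CPM [7.33-10.96].

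UMIs of Glycam1, Chst4 and Fut7 were also found in other LN classes, and their ratios are given as a description. There were 3.27 Glycam1 UMIs per Chst4 UMI in endothelial cells, 3.54 in cancer cells, 4.39 in T cells and 4.35 in B cells. The ratio of Glycam1 to Fut7 was 2.79 in endothelial cells, 2.91 in cancer cells, 1.98 in T cells and 5.22 in B cells. Without the 3 B cells of high Glycam1, B cells held 100 Glycam1, 22 Chst4 and 29 Fut7 UMIs. Cancer and T cells held 28 and 18 Chst4 UMIs. Within the endothelial class, Glycam1 per Chst4 was 1.71 in subcluster E3 and 4.69 in E2, which are described below. These ratios have no intervals, and their differences between classes were not tested. The part of free RNA in the counts of T, B and cancer cells was not tested.

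**Figure D1:**
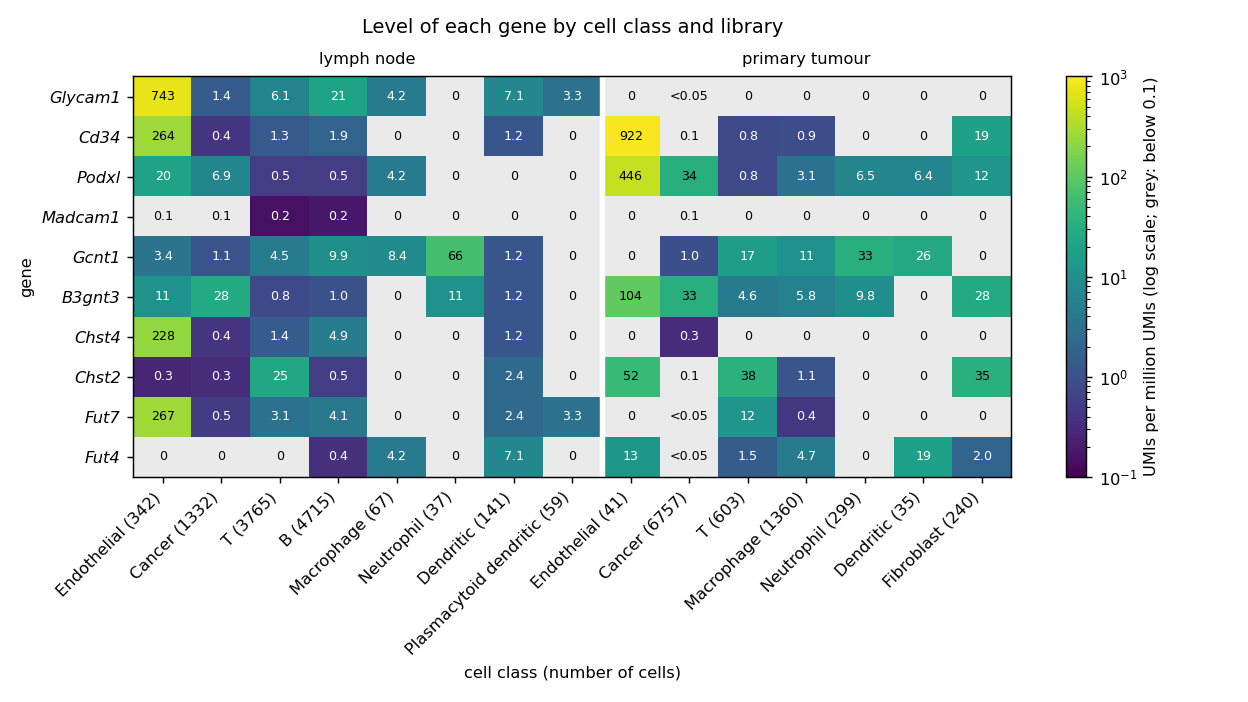
Level of each of the 10 genes (CPM, log scale) in the cell classes of the lymph node and primary tumour libraries that held at least 20 cells. Glycam1, Chst4 and Fut7 stand out in LN endothelial cells, at 743, 228 and 267 CPM, while Cd34 and Podxl are highest in PT endothelial cells, at 922 and 446 CPM.

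Cd34, a membrane mucin of endothelium and of blood progenitors, was found in endothelial cells of both tissues. LN endothelial cells held 3917 UMIs in 280 of 342 cells, a level of 264 CPM [255-272]. The 41 PT endothelial cells held 213 UMIs in 31 cells, a level of 922 CPM [802.5-1055]. PT fibroblasts were at 19.2 CPM [13.7-26.3], and every other named class with at least 20 cells was at 1.89 CPM or lower. Cells in clusters left unnamed held 482 of 4469 LN Cd34 UMIs (10.8%) and 79 of 348 PT Cd34 UMIs (22.7%). Cd34 was spread evenly in comparison with Glycam1, since the 5 highest LN endothelial cells held 7.56% of its UMIs. After thinning, 19.8% [15.6-24.5] of LN and 57.6% [40.3-73.6] of PT endothelial cells had a Cd34 UMI.

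Podxl, a podocalyxin mucin of vessels and some epithelia, was at 446 CPM [364-541] in PT endothelial cells (103 UMIs in 32 of 41 cells). In LN endothelial cells it was at 20.4 CPM [18.2-22.8], with 303 UMIs in 156 cells and at most 9 in a cell. Cancer cells carried it too, at 33.7 CPM [32.7-34.7] in the PT and 6.88 CPM [6.27-7.53] in the LN. LN T and B cells were both at 0.54 CPM. Madcam1 was close to absent, with 1 UMI in LN endothelial cells and 0 in PT endothelial cells, where 0 allows up to 13.0 CPM. Its levels across groups ranged over 0.03 on the log2 scale with 10 CPM added.

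B3gnt3, the enzyme that extends core 1 O-glycans, was carried by endothelial and cancer cells. PT endothelial cells were at 103.9 CPM [66.6-155] with 24 UMIs in 16 cells, and LN endothelial cells at 11.1 CPM [9.47-12.9] with 165 UMIs in 102 cells. Cancer cells were at 33.4 CPM [32.4-34.4] in the PT and 28.2 CPM [27.0-29.5] in the LN, and PT fibroblasts at 27.6 CPM [20.9-35.9], which overlapped the LN cancer cells. LN T and B cells were at 0.77 and 0.99 CPM. The levels in cancer and endothelial cells were thus above those in lymphocytes of the same library.

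Gcnt1, which starts the core 2 branch, had its highest levels in neutrophils. It was at 65.7 CPM [24.1-143] in 37 LN neutrophils and 32.7 CPM [15.7-60.2] in PT neutrophils, from 6 and 10 UMIs, and these intervals overlapped. PT dendritic cells were at 25.7 CPM [7.0-65.8], PT T cells at 16.9 CPM [10.6-25.6], PT macrophages at 11.4 CPM [8.48-14.97] and LN B cells at 9.91 CPM [8.14-11.9]. LN endothelial cells were at 3.43 CPM [2.55-4.51] with 51 UMIs in 39 cells, and LN T cells at 4.53 CPM [3.45-5.85]. PT endothelial cells had 0 UMIs.

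Chst4, the sulfotransferase of lymph node HECs, followed Glycam1. LN endothelial cells held 3383 UMIs in 81 cells, a level of 228 CPM [220-235], and the highest cell held 312. Cells of at most 6000 detected genes were at 508 CPM and larger cells at 134 CPM. LN B, T and cancer cells were at 4.86, 1.38 and 0.41 CPM, and PT cancer cells at 0.32 CPM from 43 UMIs. PT endothelial cells had 0 UMIs.

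Chst2, the second sulfotransferase, was placed differently. LN endothelial cells held 4 UMIs, a level of 0.27 CPM [0.073-0.69], while PT endothelial cells held 12 UMIs in 9 cells, a level of 52.0 CPM [26.8-90.7]. T cells were at 37.7 CPM [27.9-49.9] in the PT and 24.9 CPM [22.3-27.8] in the LN, and PT fibroblasts at 34.5 CPM [26.9-43.6]. The intervals of PT endothelial cells, PT T cells and PT fibroblasts overlapped. LN B cells were at 0.54 CPM and LN cancer cells at 0.32 CPM. Among T cell clusters, the cluster led by Foxp3, the regulator of regulatory T cells, was at 55.0 CPM [45.6-65.8] in 499 LN cells and at 60.9 CPM [24.5-125] in 48 PT cells. The cluster led by Bend4 and Lef1 was at 23.3 CPM [19.4-27.7] in 1432 LN cells. Gcnt1 was also higher in the Foxp3-led LN cluster, at 21.7 CPM [16.0-28.9] against 0.36 CPM [0.044-1.31] in the cluster led by Bend4 and Lef1.

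Fut7, the fucosyltransferase of selectin ligands on HECs and leukocytes, was at 267 CPM [258-275] in LN endothelial cells, with 3964 UMIs in 84 cells and 332 in the highest. Cells of at most 6000 detected genes were at 561 CPM and larger cells at 169 CPM. LN T, B and cancer cells were at 3.07, 4.05 and 0.49 CPM. PT T cells were at 12.3 CPM [7.04-20.003], and all of their 16 UMIs lay in the cluster led by Cd8a and Cd8b1, at 14.9 CPM [8.51-24.3]. That cluster held 504 of the 603 PT T cells. Glycam1 and Chst4 both had 0 UMIs in PT T cells, which allows up to 2.31 CPM. Fut4, the other fucosyltransferase, had 0 UMIs in LN endothelial cells, which allows up to 0.20 CPM, and 3 UMIs in PT endothelial cells. The latter were at 13.0 CPM [2.68-37.96], and PT dendritic cells, also with 3 UMIs, at 19.28 CPM [3.98-56.3]. LN dendritic cells were at 7.13 CPM [2.62-15.5] and PT macrophages at 4.69 CPM [2.90-7.17].

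Endothelial cells of both libraries were clustered again together, without the 10 genes and 45 other genes of the pathway. The LN cells of each subcluster are described here, and E0 held 38 of the 41 PT cells and 2 LN cells. The subclusters, called E0 to E7, differed in the 3 HEC genes. E4, led by Ccl4, Cxcl10 and Mdm2, held 74 LN cells and was at 2418 CPM for Glycam1 [2365-2471], 700.04 CPM for Chst4 [672-729] and 821 CPM for Fut7 [791-853]. E6 held 36 cells and was at 1085, 252 and 319 CPM for these genes, E2 held 65 cells and was at 395, 84.2 and 63.9 CPM, and E3 held 62 cells and was at 245, 143 and 160 CPM. E1 (38 cells, led by Plac8, Lyve1 and Selenbp1) and E5 (52 cells, led by Il24 and Fst) were at 3.30 CPM [1.42-6.50] and 2.05 CPM [0.75-4.46] of Glycam1, the latter below LN T cells. E2 was shallow, with a median of 2901 UMIs in its LN cells, and its T cell markers summed to 186 CPM, against 28.2 CPM in E4. Cancer cell markers summed to 93.1 CPM in E4, 77.2 CPM in E6 and 66.8 CPM in E2, against 37.6 to 39.99 CPM in E1, E3 and E5, and their part in the levels was not tested. E7 held 13 LN cells with a median of 7584 UMIs, led by Igkc, Lcn2, Cd74 and ribosomal genes, and is not drawn. Its endothelial markers summed to 570 CPM and its B cell markers to 256 CPM. Of the 10 genes it held only Cd34, at 76.0 CPM [32.8-149.7] from 8 UMIs, and its 0 UMIs of Glycam1 allow up to 28.5 CPM. Its cells are counted among the 342 endothelial cells.

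Single cells set some of these levels. In E6, 1 cell held 907 of 1870 Glycam1 UMIs, and in E3, 1 cell held 452 of 978. In E2, 1 cell held 73 of 136. Without these cells Glycam1 was at 570 CPM in E6, 133 CPM in E3 and 184 CPM in E2, and without the highest cell of each gene Chst4 and Fut7 were at 140.1 and 188 CPM in E6, 98.1 and 92.0 CPM in E3, and 37.9 and 23.3 CPM in E2. In E4 the highest cell held 1665 of 8047, and 56 of its 74 cells had at least 1 Glycam1 UMI. Of 36 E6 cells 13 had one, and of 62 E3 cells 13 had one.

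Cd34, Podxl and B3gnt3 were higher in E1 than in E4. Cd34 was at 376 CPM [352-401] in E1, 314 CPM [294-335] in E5 and 303 CPM [286-320] in E3, against 134 CPM [122-147] in E4. E6 was between them at 225 CPM [203-248], and E2 was at 107 CPM [75.7-148], which overlapped E4. Podxl was at 32.6 CPM [25.8-40.6] in E1 and 11.1 CPM [7.83-15.3] in E4, with E2 at 23.2 CPM [10.03-45.8], and B3gnt3 at 24.3 CPM [18.5-31.4] in E1 and 3.91 CPM [2.08-6.68] in E4. Gcnt1 was highest in E3, a subcluster led by histone and mitosis genes, at 7.25 CPM [4.86-10.4]. Its interval did not reach that of E4 at 0.90 CPM [0.19-2.63] but overlapped those of E1 [1.16-5.95], E5 [0.96-4.93] and E6 [0.94-6.77]. E2 had 0 Gcnt1 UMIs, which allow up to 8.71 CPM. The general endothelial markers summed to 2566 CPM in E1, 1558 CPM in E5, 1408 CPM in E3, 761 CPM in E4, 639 CPM in E6 and 499.5 CPM in E2. Their part in the mucin levels was not tested.

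**Figure D2:**
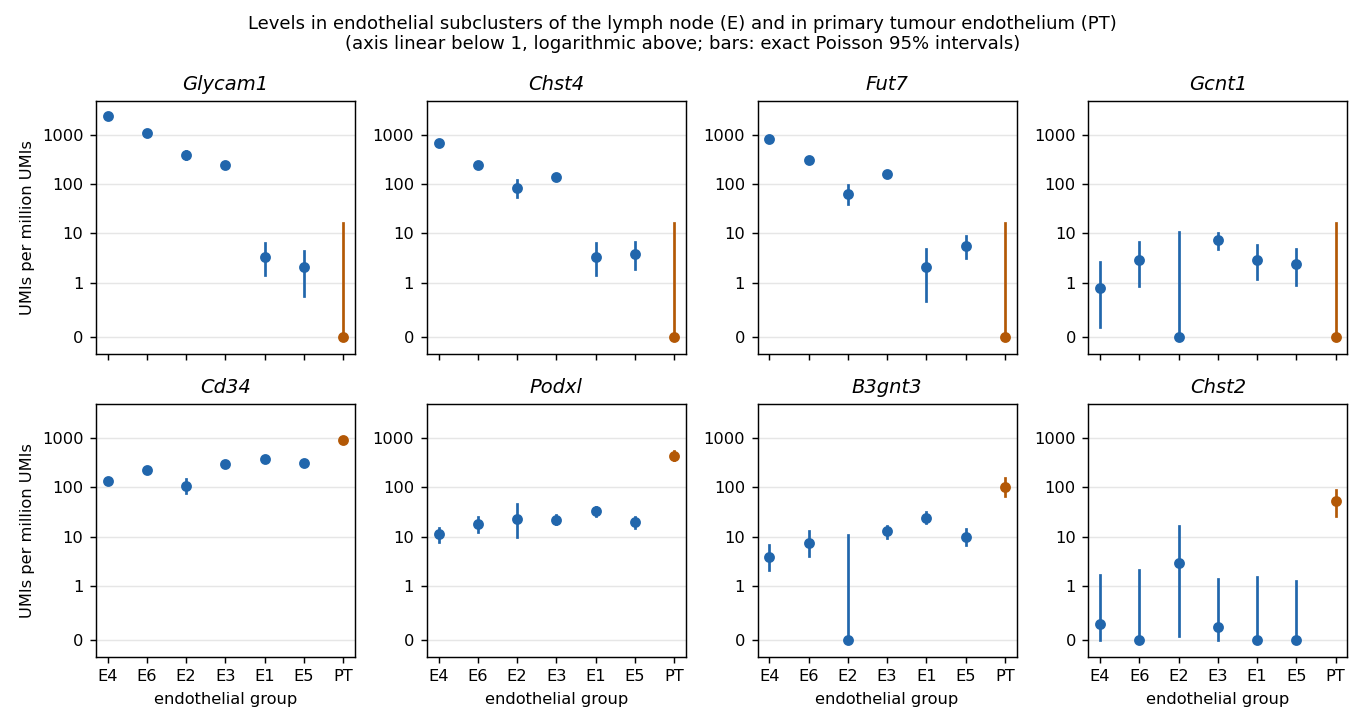
Level (CPM, with 95% counting intervals) of 8 genes in 6 endothelial subclusters of the lymph node library and in the primary tumour endothelial cells, on an axis that is linear below 1 and logarithmic above. Glycam1, Chst4 and Fut7 are highest in E4, at 5.47 CPM or lower in E1 and E5, and at 0 UMIs in PT cells, while Cd34, Podxl and B3gnt3 are higher in E1 than in E4.

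The genes found together in single cells split the list into sets. Glycam1, Chst4 and Fut7 were all present in 63 of the 342 LN endothelial cells (18.4%, or 6.38% after thinning to 1000 UMIs), exactly 2 of them in 14 cells, exactly 1 in 55 cells and none in 210 cells. Of the cells with 1 gene, 35 had Glycam1, 12 had Fut7 and 8 had Chst4. The 63 cells held nearly all UMIs of these genes in the class, 99.2% for Glycam1, 98.5% for Chst4 and 98.9% for Fut7. Within them the lowest, median and highest counts were 1, 61 and 1665 UMIs for Glycam1, 1, 12 and 312 for Chst4, and 1, 27 and 332 for Fut7. With at least 10 UMIs asked of each gene, 33 cells remained positive for all 3. All 3 were found in 3 of 4715 LN B cells, 1 of 3765 T cells, 1 of 1332 cancer cells and 0 of 41 PT endothelial cells. LN cancer cells had a median depth above that of the endothelial cells.

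**Figure D3:**
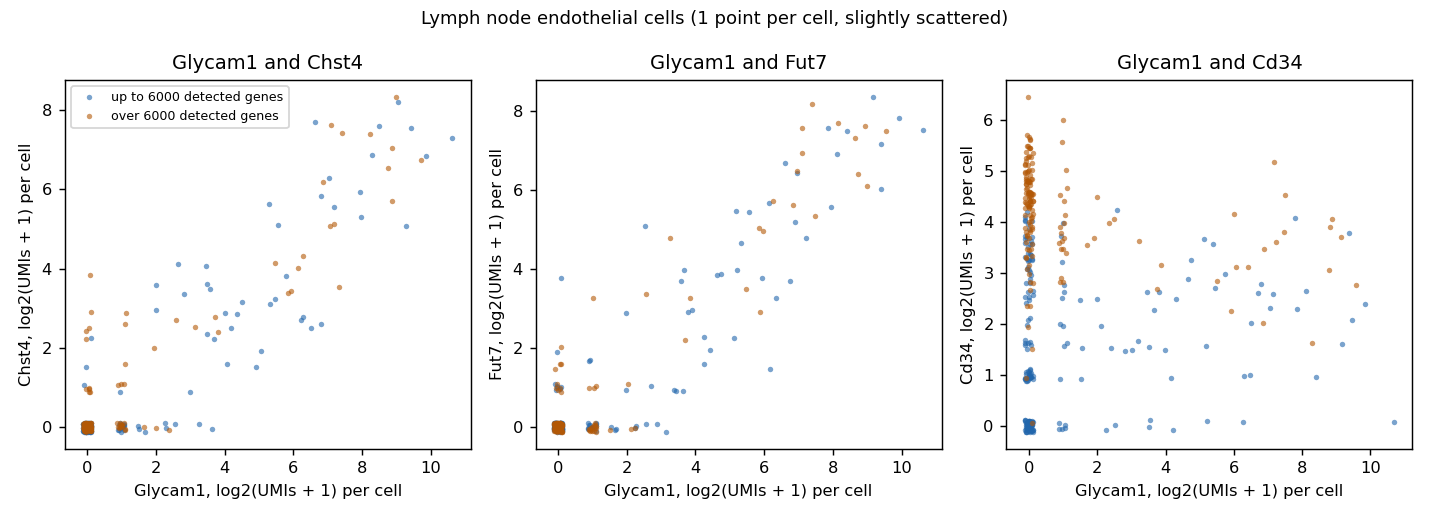
Chst4, Fut7 and Cd34 against Glycam1 in single lymph node endothelial cells, each as log2(UMIs + 1), with cells over 6000 detected genes in another colour. Chst4 and Fut7 are high in the cells with high Glycam1, while Cd34 is found with and without it.

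Most cells with Chst4 or Fut7 also held the other HEC genes. Of 81 Chst4 cells, 68 (84.0%) had Glycam1 and 68 had Fut7, while 5.53% of cells without Glycam1 had Chst4. Of 84 Fut7 cells, 67 (79.8%) had Glycam1. Across the 342 cells, depth-scaled log counts had Pearson correlations of 0.90 for Glycam1 with Chst4, 0.90 for Glycam1 with Fut7 and 0.94 for Chst4 with Fut7, given as a description over cells of 1 library. Cd34 was found in 87.9% of Glycam1 cells and 79.1% of cells without Glycam1, with a correlation of -0.13.

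The cells with all 3 genes had a median depth of 39420 UMIs, and the cells with none 41201. Up to 6000 detected genes these medians were 29888 and 8655 UMIs, and over 6000 genes 59773 and 69913. Among cells over 6000 detected genes 25 of 156 (16.0%) had all 3, and among the other cells 38 of 186 (20.4%). The large cells had lower Glycam1, at 373 CPM [362-385] against 1856 CPM [1813-1900], and higher Cd34, at 288 CPM [278-298] against 190 CPM [176-204]. Their median depth was 68494.5 UMIs against 16177. All 102 B3gnt3 cells and all 39 Gcnt1 cells had Cd34, and 142 of the 165 B3gnt3 UMIs came from cells over 6000 genes. B3gnt3 and Podxl were found together in 69 cells, which is 67.6% of B3gnt3 cells and 44.2% of Podxl cells. Among cells up to 6000 genes, 35.0% of B3gnt3 cells had Podxl, so the share differed with depth.

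**Figure D4:**
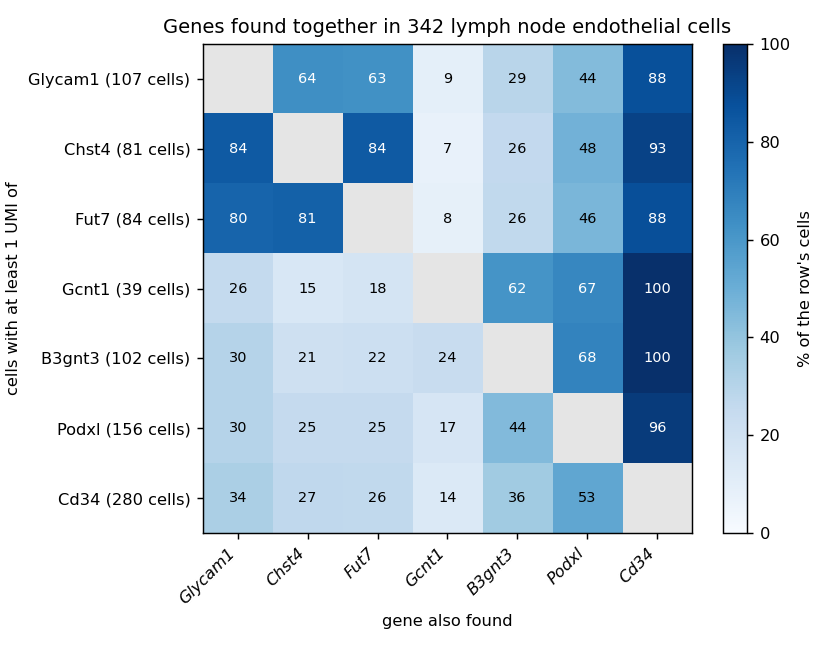
Share of cells with the gene in the row that also had the gene in the column, among the 342 lymph node endothelial cells, in percent. Glycam1, Chst4 and Fut7 form a block in the lymph node, and Cd34 is found in most cells with each of the other genes drawn.

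In PT endothelial cells, Cd34 and Podxl were found together in 27 of 41 cells. Podxl was found in 87.1% of Cd34 cells, and after thinning to 1000 UMIs in 44.1% of them, against 39.6% of the 37 cells with that depth. B3gnt3 was found with Podxl in 15 of its 16 cells. Among PT cancer cells, 48.6% of B3gnt3 cells had Podxl, against 36.6% of cells without B3gnt3. Within 2130 PT cancer cells of 10000 to 20000 UMIs these shares were 39.6% and 40.1%. In LN T cells, 12 of 40 Gcnt1 cells (30.0%) had Chst2, against 6.44% of cells without Gcnt1. These cells were not matched for depth, and both genes were higher in the Foxp3-led cluster. The part of depth and of cluster in this share was not tested.

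LN endothelial cells with all 3 HEC genes were also set against those with none for the genes that did not choose them. The levels of Glycam1, Chst4 and Fut7 here are fixed by the choice, so they support nothing. A gene was compared if its level in either group matched at least 10 UMIs in the smaller group, and more than 2-fold counted as lower or higher. Of all 9893 genes compared, 5.57% were lower and 3.43% higher in the cells with all 3. Among the 4 other members compared, Gcnt1 was lower, at 1.68 against 4.17 CPM, from 5 and 36 UMIs (log2 difference -1.19 [-3.02 to 0.05]). It was above the level needed for the comparison only in the cells with none, so its direction was fixed by the filter. Cd34 was at 183 CPM against 310 CPM (-0.76 [-0.89 to -0.62]) and Podxl at 13.8 against 23.2 CPM (-0.73 [-1.27 to -0.26]). B3gnt3 was at 9.43 against 11.5 CPM, with an interval that spanned 0.

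Of the 45 other pathway genes, 30 were compared, and 1 was higher, 4 were lower and 25 lay within 2-fold. The higher one was Enpp2, the autotaxin enzyme of HECs, at 296 CPM in the 63 cells and 1.74 CPM in the 210 (log2 difference 7.37 [6.68 to 8.26]). Enpp2 was also at 180 CPM in LN cancer cells, so it is not particular to endothelium here. The lower ones were Slc35c1, the Golgi transporter of GDP-fucose (-2.52 [-4.30 to -1.37]), the sulfotransferase Chst1 (-1.77 [-3.86 to -0.46]), the sialyltransferase St3gal4 (-1.13 [-2.06 to -0.38]) and the mucin Spn (-1.16 [-2.27 to -0.29]). Each of the 4 had fewer than 20 UMIs in the 63 cells. Enpp2, Slc35c1 and Chst1 were above the level needed for the comparison in 1 of the groups only, so their direction was fixed by the filter, while Spn and St3gal4 were above it in both. The general sulfate, sialic acid and fucose supply genes Papss1, Cmas and Gmds lay within 2-fold.

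Between tissues, the endothelial class was compared for genes whose level in either library matched 10 UMIs in the smaller class, or 43.3 CPM. In all, 32.7% of 4939 genes were more than 2-fold lower and 23.5% more than 2-fold higher in the LN. Of the 10 members, 3 were higher, 4 lower and 3 could not be compared. Of those compared, Cd34 was above this level in both libraries and the others in only 1, so they had to differ and the counts support nothing. The LN level of Glycam1 was 57.2 times the limit that a count of 0 allows in the PT, that of Fut7 20.5 times and that of Chst4 17.5 times. These multiples leave out the counting error of the LN levels and are not lower ends of an interval. Chst2 was lower (log2 difference -7.48 [-9.68 to -5.87]), from 4 and 12 UMIs. Podxl was lower by 4.46 on the log2 scale [-4.78 to -4.11], B3gnt3 by 3.25 [-3.85 to -2.54] and Cd34 by 1.81 [-2.01 to -1.60]. The summed endothelial markers were also lower in the LN class, at 1370 against 6611 CPM, and its part in these differences was not tested.

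Of the 45 other pathway genes, 2 were higher, 11 lower and 4 within 2-fold in LN endothelial cells, and 28 could not be compared. Among those higher or lower, Emcn, Galnt1, B4galt1 and Ltbr were at or above 43.3 CPM in both libraries, and the direction of the others was fixed by the filter, so the counts support nothing. The higher ones were Enpp2 (1.37 [0.28 to 3.13]) and Tsta3, the enzyme that makes GDP-fucose (1.24 [0.34 to 2.54]). The lower ones included 3 mucin cores, Emcn (-1.93), Cd164 (-1.16) and Cd300lg (-8.43), with Cd300lg at 195 CPM in the PT and 0.54 CPM in the LN. They also included Galnt1, which starts O-glycans (-2.92), Chst1 (-5.77), Papss2, which makes the sulfate donor (-4.85), and St3gal4 (-2.83). Selp, the P-selectin gene, lay within 2-fold (0.37 [-0.20 to 1.08]).

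**Figure D5:**
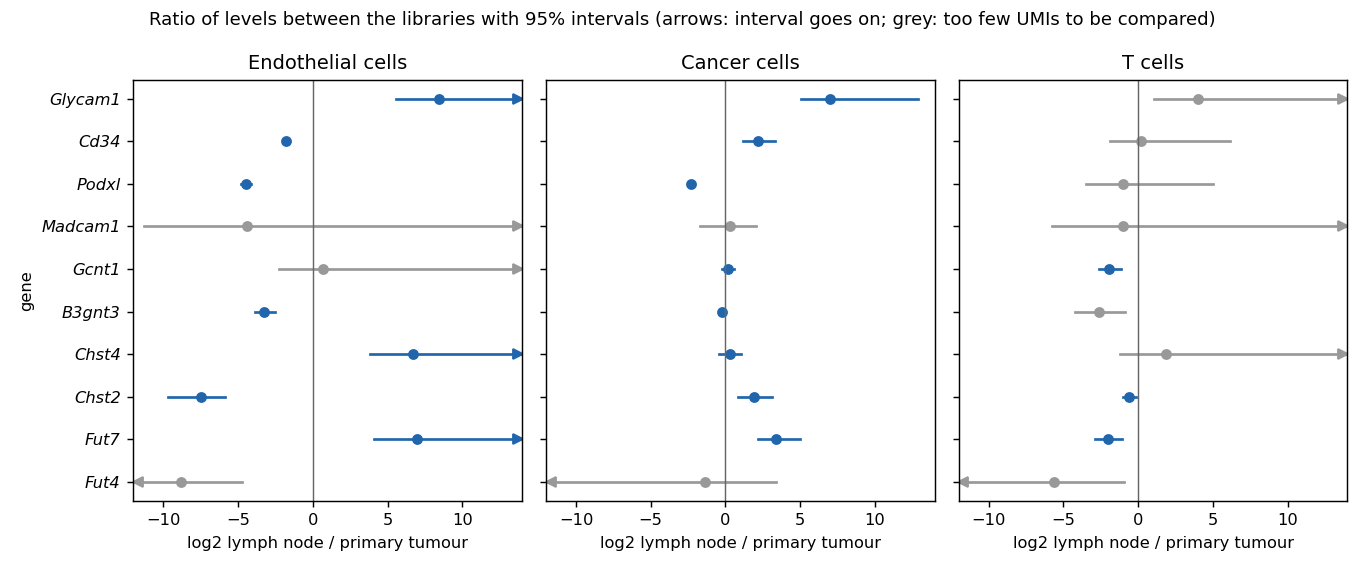
Log2 ratio of lymph node over primary tumour level of each member in endothelial, cancer and T cells, with 95% counting intervals. Arrows mark intervals that go on, and members with too few UMIs to be compared are grey. Glycam1, Chst4 and Fut7 lie above 0 in endothelial cells, and Podxl lies below 0 in endothelial and cancer cells.

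In cancer cells, 10.8% of 13086 genes were more than 2-fold lower and 11.7% higher in the LN. Of the members, 4 were higher, 1 lower, 3 within 2-fold and 2 not compared. Podxl was the lower one, at 6.88 against 33.7 CPM (-2.29 [-2.43 to -2.16]), and B3gnt3 differed little, at 28.2 against 33.4 CPM (-0.24 [-0.32 to -0.16]). The 4 higher members, Glycam1 (6.99), Fut7 (3.35), Cd34 (2.18) and Chst2 (1.91), were all at 1.43 CPM or lower in LN cancer cells, below the level in LN T cells. They were above the level needed for the comparison in the LN library only, so their direction was fixed by the filter and their number supports nothing. Cd34 differed by 0.13 as a mean of single cells. With other processing, Glycam1 in LN cancer cells ranged up to 6.90 CPM and Fut7 up to 5.21 CPM. Glycam1, Fut7 and Cd34 were high in endothelial cells of the same library, and the part of free RNA in these ratios was not tested. Of the 45 other pathway genes, 5 were higher, 3 lower and 30 within 2-fold.

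In T cells, 28.6% of 8669 genes were more than 2-fold lower and 4.98% higher in the LN. Of the members, 2 were lower, 0 higher, 1 within 2-fold and 7 not compared. Fut7 and Gcnt1 were above the level needed for the comparison in the PT library only, so their direction was fixed by the filter. Fut7 was lower, at 3.07 CPM against 12.3 CPM (-2.03), as was Gcnt1, at 4.53 against 16.9 CPM (-1.92), while Chst2 was at 24.9 against 37.7 CPM (-0.61). Different clusters hold most T cells in the tissues. The main PT cluster was led by Cd8a and Cd8b1. Large LN clusters were led by Bend4 and Lef1 (1432 cells, with Cd8b1 also among the leading genes), by Itm2a (1313 cells) and by Foxp3 (499 cells). Of the 45 other genes, 1 was higher, 12 lower and 14 within 2-fold.

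Across the 20 classes and endothelial subclusters with at least 20 cells, the pattern of each member was compared with 12860 genes by the Pearson correlation of log2(CPM + 10). These groups share libraries and cell sources, so the values are descriptions. For Glycam1 the most alike genes were Chst4 (0.99), Fut7 (0.97) and Gon7 (0.89), and for Fut7 they were Chst4 (0.99), Glycam1 (0.97) and Stmn4 (0.88). For Cd34 they were Ramp2 (0.99), Emcn (0.99) and Hoxb8 (0.98). For Podxl they were Shroom2, Mall and Uaca, and for B3gnt3 Hspg2, Pcdh1 and Synpo, all highest in PT endothelial cells. For Chst2 they were Dnaja4, Zfp827 and Dipk2a, for Gcnt1 Il1r2, Ifitm1 and Cyb561d1, and for Fut4 Kcnk6, Papss2 and Npr1.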

How the data were processed

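Single-cell RNA of 2 tissues was analysed, with 1 library per tissue. The deposited matrices hold raw UMI counts, made by the authors with Cell Ranger against GRCm38. The file header gives version 5.0.0 and the submitters' processing notes version 2.1.1. The genes, lists and comparisons were chosen with earlier results of these data known. Named genes were the 10 members, 45 pathway genes and, for likeness, the 3 most correlated genes per member.

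Cells had over 200 detected genes and at most 5% mitochondrial UMIs, and cells over 6000 genes were kept. Scrublet in scanpy 1.11.5 marked 703 PT cells. In the LN it marked 0, so 648 cells above the 94th percentile of its score were removed. Cells were clustered by the Leiden method of igraph 0.11.9 at resolution 1.0 on 30 components, with members and pathway genes left out, and named from fixed markers. The rule that left 172 LN and 20 PT cells unnamed, most with markers of more than 1 class, was set after seeing the data. Endothelial cells were clustered again on 20 components.

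Log2 ratios added 0.5 count to each sum, with intervals exact for the split of counts. A count of 0 was given a limit of 3 counts. The packages were scipy 1.17.1, numpy 2.4.6, matplotlib 3.10.9 and pandas 2.3.3, under Python 3.11.15. The thinning and interval formulas were tested on simulated data.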

Additional observations from a re-analysis of the deposited data

Results flagged for a closer look

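Some members differed between tissues in opposite directions in different cell classes, and none of these differences between classes was tested. Chst2 was higher in LN than in PT cancer cells (log2 difference 1.91) and lower in LN endothelial cells, and in T cells it was lower (-0.61), opposite to cancer cells. Fut7 was lower in LN T cells (-2.03) and higher in LN endothelial and cancer cells. Cd34 was higher in LN cancer cells (2.18, but 0.13 as a mean of single cells) and lower in LN endothelial cells. All of these cancer cell levels were under 1 CPM as processed here, but Fut7 in LN cancer cells ranged up to 5.21 CPM with other processing. Chst2 in endothelial and cancer cells, Fut7 in all 3 classes and Cd34 in cancer cells were above the level needed for the comparison in 1 library only, so these directions were fixed by the filter and are given as values only.

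A signal was also found in cells that entered no comparison. The 55 LN cells with markers of both cancer and endothelial cells, left unnamed, held 787 Glycam1, 191 Chst4 and 567 Fut7 UMIs.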

How the results depend on the processing

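Of the values recomputed for 108 results, 612 moved by less than their counting interval, 112 moved further and 0 called values reversed. The Glycam1 level in LN endothelial cells, 743 CPM, was 1856 with cells of at most 6000 genes, 813 with doublets kept, 544 with a marker gate, 796 with at least 2000 UMIs per cell, 1060.3 as a mean of single cells and 633 without its highest cell. With alternatives chosen after seeing the data it was 593 when the cells with cancer and endothelial markers were counted as endothelial and 757 without shallow subclusters. The log2 difference of Cd34 in endothelial cells was -2.03 with at most 6000 genes, -1.44 with a marker gate and -2.07 with the cells of both marker sets. That of Podxl was -4.95 as a mean of single cells, and that of B3gnt3 in cancer cells -0.33 with at most 6000 genes and -0.39 as a mean. The share of LN endothelial cells with Glycam1 was 31.3% without thinning, and the share with all 3 HEC genes was 6.38% thinned to 1000 UMIs. The Fut7 level in LN cancer cells ranged from 0.40 to 5.21 CPM. Without the highest cell of each gene, 3 rather than 4 members were more than 2-fold lower in LN endothelial cells, because Chst2 then had too few UMIs to be compared. No paired analysis was possible because the 2 libraries share fewer than 2 replicate numbers. Depth limits PT endothelial cells, where 0 UMIs allow up to 13.0 CPM.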
